A study of Mus musculus with 15 samples.

Results

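The potassium channel genes of mouse heart ventricle were followed after inducible loss of Acsl1, an enzyme that couples long-chain fatty acids to coenzyme A so that the heart can burn them. Every gene whose annotated symbol starts with Kcn was taken, which covers the pore-forming subunits and the accessory subunits of these channels. This gave 81 genes of the 19532 measured, read by 118 probes. Another 2 symbols of noncoding transcripts, Kcnq1ot1 and Kcnmb4os1, were kept apart. A list of 17 genes known for ventricular repolarisation was singled out, and 16 of them were measured.

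Male Acsl1H-/- mice were compared with Acsl1flox/flox littermates of the strain that the labels give as C57Bl/J6. All groups, controls included, received tamoxifen at 75 mg/kg for 4 days at 6 to 8 weeks of age, and ventricles were collected 2 or 10 weeks afterwards. There were 4 control and 3 knockout hearts at 2 weeks and 4 of each at 10 weeks, labelled as biological replicates. The promoter that drives the recombinase is not given in the sources used here, and no group carried the recombinase without the deletion, so those effects cannot be told apart. Heart RNA was hybridised on 2-colour arrays against RNA from whole neonatal animals. Acsl1 itself was not analysed here.

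Potassium channels end each heartbeat's action potential by letting potassium leave the cell. In the mouse ventricle, transient outward and delayed rectifier channels carry most of the early repolarisation. Inward rectifiers hold the resting potential, and ATP-sensitive channels open when cellular energy falls. Accessory subunits bind the pore and set how fast it gates and how much of it reaches the membrane.

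All values below are log2 ratios of heart to reference, centred so that each probe has a median of 0 over the 15 arrays. They compare arrays within a gene and give no expression level, so members cannot be ranked by abundance. The direction of the ratio is likely, from the dyes named in the labels, but not stated: with the opposite sign every fall below would be a rise. Differences are knockout minus control, with a standard error (SE) from limma, and group means carry a standard deviation (SD). A call means an adjusted p under 0.05, with the adjustment over all 19532 genes. The RNA came from whole ventricle, so fewer cells of a type and less RNA per cell cannot be told apart.

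At 10 weeks, 2 of the 81 potassium channel genes were called, and both fell in the knockouts: Kcnj12, a pore subunit of the inward rectifier that holds the resting potential, and Kcnq1, the pore subunit of the slow delayed rectifier. They made up 2.47% of members, where 0.686% of all genes (134 genes) were called in either direction and 0.328% were called lower. Leaving out 1 array moved the 134 to between 61 and 142, and the members called to 1 or 2. No member was called higher, where 0.358% of all genes were. Over all 81 members the median difference was -0.05, against -0.02 over all genes, and 47 members lay below 0 (58% of members, and 53.5% of all genes). The family as a group thus lay close to the rest of the array. Of the 16 ventricular repolarisation genes, 11 lay below 0 and their median was -0.18. The 16 accessory subunits had a median of -0.03, and none of them was called.

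By role, the 14 inward rectifiers had a median of -0.05 at 10 weeks, the 13 voltage-gated pore subunits of the Kcna, Kcnb, Kcnc and Kcnd groups -0.01, the 10 2-pore channels 0.07 and the 9 silent modifiers -0.11. The 4 small and intermediate calcium-activated channels had the lowest role median, -0.44, with members from -1.02 to 0.44, and none of them was called. Single members ran from -1.17 to 0.88 at 10 weeks and from -1.68 to 0.70 at 2 weeks.

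**Figure D1:**
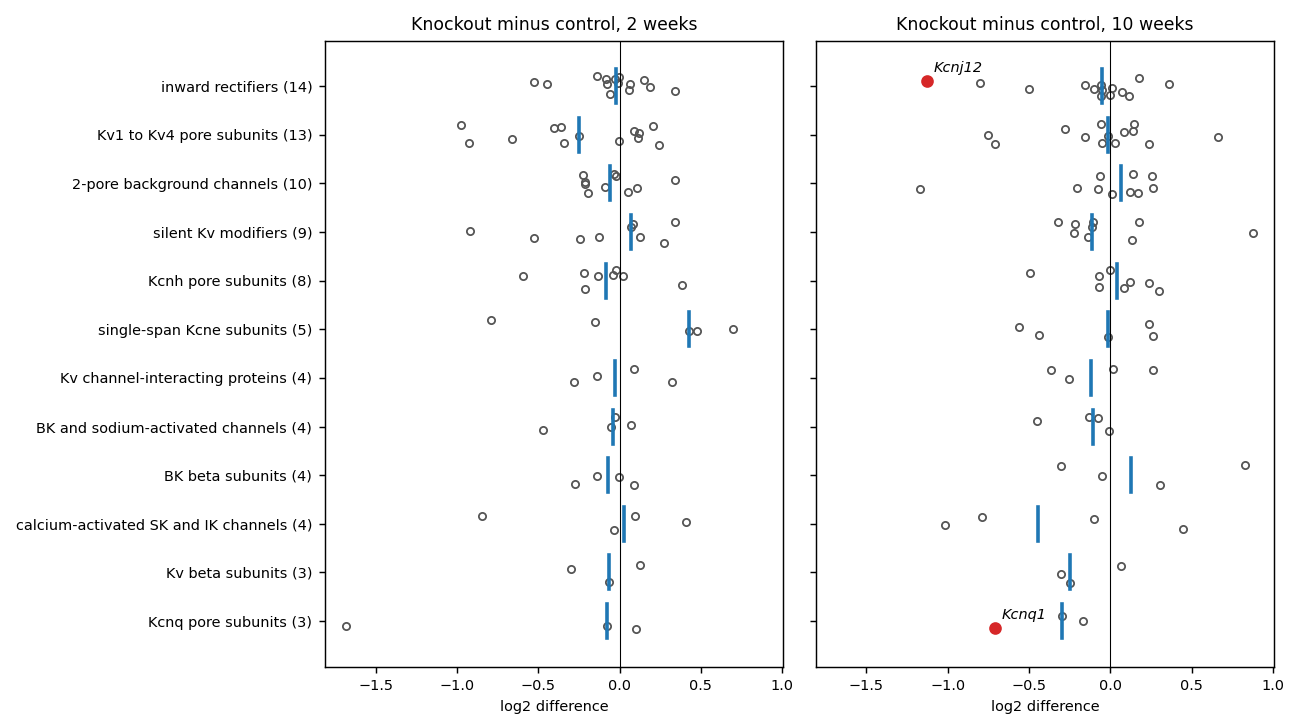
Knockout minus control difference (log2, horizontal axis) of each of the 81 potassium channel genes, grouped by role, at 2 weeks (left) and 10 weeks (right), with called genes filled and a line at the median of each role. Most members cluster around 0 in both panels, and the called members at 10 weeks are Kcnj12 at -1.13 and Kcnq1 at -0.71.

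Of the genes behind the inward rectifier current IK1, Kcnj12 fell, while Kcnj2, the main pore subunit of that current in the mouse ventricle, lay near 0 in every group. In the 4 controls at 10 weeks Kcnj12 read 0.01, 0.00, 0.34 and 0.06, and in the 4 knockouts it read -0.67, -1.26, -0.87 and -1.32. Each knockout lay well below every control. The group means were 0.10 ± 0.16 (SD, n = 4) and -1.03 ± 0.31 (SD, n = 4), and the difference was -1.13 ± 0.16 (SE, limma adjusted p = 0.00584), with a 95% interval from -1.48 to -0.78. At 2 weeks the controls read 0.32, 0.37, 0.70 and 0.09 and the 3 knockouts -0.16, -0.14 and -0.17. Again no knockout overlapped a control, and the knockouts lay close together. That difference was -0.53 ± 0.17 (SE, limma adjusted p = 0.561), with an interval from -0.90 to -0.16, and it was not called.

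Kcnj2 showed little spread. In the controls at 10 weeks it read 0.03, 0.02, -0.06 and 0.02, and in the knockouts -0.04, 0.00, -0.10 and -0.06. The groups overlapped, with a difference of -0.05 ± 0.07 (SE, limma adjusted p = 0.903) and an interval from -0.21 to 0.11. At 2 weeks it was -0.01 ± 0.08 (SE, adjusted p = 0.987). Its values spanned 0.172 over all 15 arrays, the narrowest span of the 81 members, while the median member spanned 1.27. Its single probe also tracked the median of all probes of an array (r = 0.56 over 15 arrays, as a description), so how well this probe reads the gene is unknown.

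Kcnj4, a further subunit of the same current, lay at 0.18 ± 0.30 at 10 weeks (SE, adjusted p = 0.923) and 0.19 ± 0.33 at 2 weeks (SE, adjusted p = 0.929), and its groups overlapped. Its 3 probes disagreed at 2 weeks, at 1.31, -0.16 and -0.60, so its mean says little.

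The promoters of Kcnj12 and Kcnj2 are shown because the single probes of these subunits of one current gave different values on the same arrays. How well the Kcnj2 probe reads its gene is unknown, so the genes themselves may not differ in this way. Both genes lie on mouse chromosome 11. Each window holds the 300 bases around an annotated start in RefSeq's GRCm38.p6 build, most of them upstream, on the plus strand. Windows were at hand for 62 members, Kcnq1 and Kcnj11 not among them. Both strands were searched for the GC box GGGCGG, the CACCC box CCACCC bound by Klf factors, the E-box CACGTG and the nuclear receptor motif AGGTCA, and matches are in capitals.
Kcnj12, chr11:61065554-61065853: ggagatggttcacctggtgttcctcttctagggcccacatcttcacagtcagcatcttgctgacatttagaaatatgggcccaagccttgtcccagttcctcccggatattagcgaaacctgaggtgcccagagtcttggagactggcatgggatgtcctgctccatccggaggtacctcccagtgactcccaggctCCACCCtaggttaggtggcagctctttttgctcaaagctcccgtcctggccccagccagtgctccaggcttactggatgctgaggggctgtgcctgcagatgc
Kcnj2, chr11:111065914-111066213: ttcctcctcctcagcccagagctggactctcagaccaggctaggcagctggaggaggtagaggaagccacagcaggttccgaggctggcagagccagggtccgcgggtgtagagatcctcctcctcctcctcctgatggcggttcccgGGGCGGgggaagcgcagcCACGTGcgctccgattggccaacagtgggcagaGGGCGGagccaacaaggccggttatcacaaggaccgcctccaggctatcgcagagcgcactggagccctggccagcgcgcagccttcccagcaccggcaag

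The Kcnj12 window held 1 CACCC box and none of the other motifs, with 57% G and C bases. The Kcnj2 window held 2 GC boxes and 1 E-box, with 66.7% G and C bases. Such letters are common: a CACCC box occurred in 31.5% of all 32851 promoter windows and in 57.5% of the 87 windows of members. A GC box occurred in 35.7% of all windows and 50.6% of member windows, an E-box in 7.15% and 8.05%, and the nuclear receptor motif in 16.3% and 5.75%. The Kcnj12 window lies within the annotated span of the gene, from 61022564 to 61073269 on chromosome 11, so it belongs to one of its start sites. The matches are descriptions of the letters only.

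The pore subunit of the ATP-sensitive channel, Kcnj11, was lower at 10 weeks without passing the threshold. The controls read 0.07, 0.54, 0.16 and 0.00, and the knockouts -0.52, -0.89, -0.10 and -0.93. No knockout reached the lowest control, although the third knockout came within 0.10 of it. The difference was -0.80 ± 0.21 (SE, limma adjusted p = 0.117). Without that knockout the adjusted p was 0.0497, and over all arrays left out in turn it ran up to 0.275. At 2 weeks the controls read 0.00, -0.07, 0.68 and 0.26 and the knockouts 0.19, 0.14 and -0.09, which overlap, and the difference was -0.14 ± 0.22 (SE, adjusted p = 0.921).

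Kcnj8, the ATP-sensitive pore subunit best known from vascular muscle, lay at 0.01 ± 0.09 at 10 weeks (SE, adjusted p = 0.987) and 0.15 ± 0.10 at 2 weeks (SE, adjusted p = 0.787). Its 2 probes lay on opposite sides of 0 at 10 weeks, at 0.16 and -0.15. The sulfonylurea receptors that pair with the Kcnj11 and Kcnj8 pores were not called either. Abcc9, the main receptor of ventricular channels, ranged from 0.01 to 0.32 in the controls at 10 weeks and from -1.44 to 0.00 in the knockouts, a difference of -0.70 ± 0.30 (SE, adjusted p = 0.436). Abcc8, the receptor of pancreatic and atrial channels, differed by 0.24 ± 0.12 (SE, adjusted p = 0.569).

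**Figure D2:**
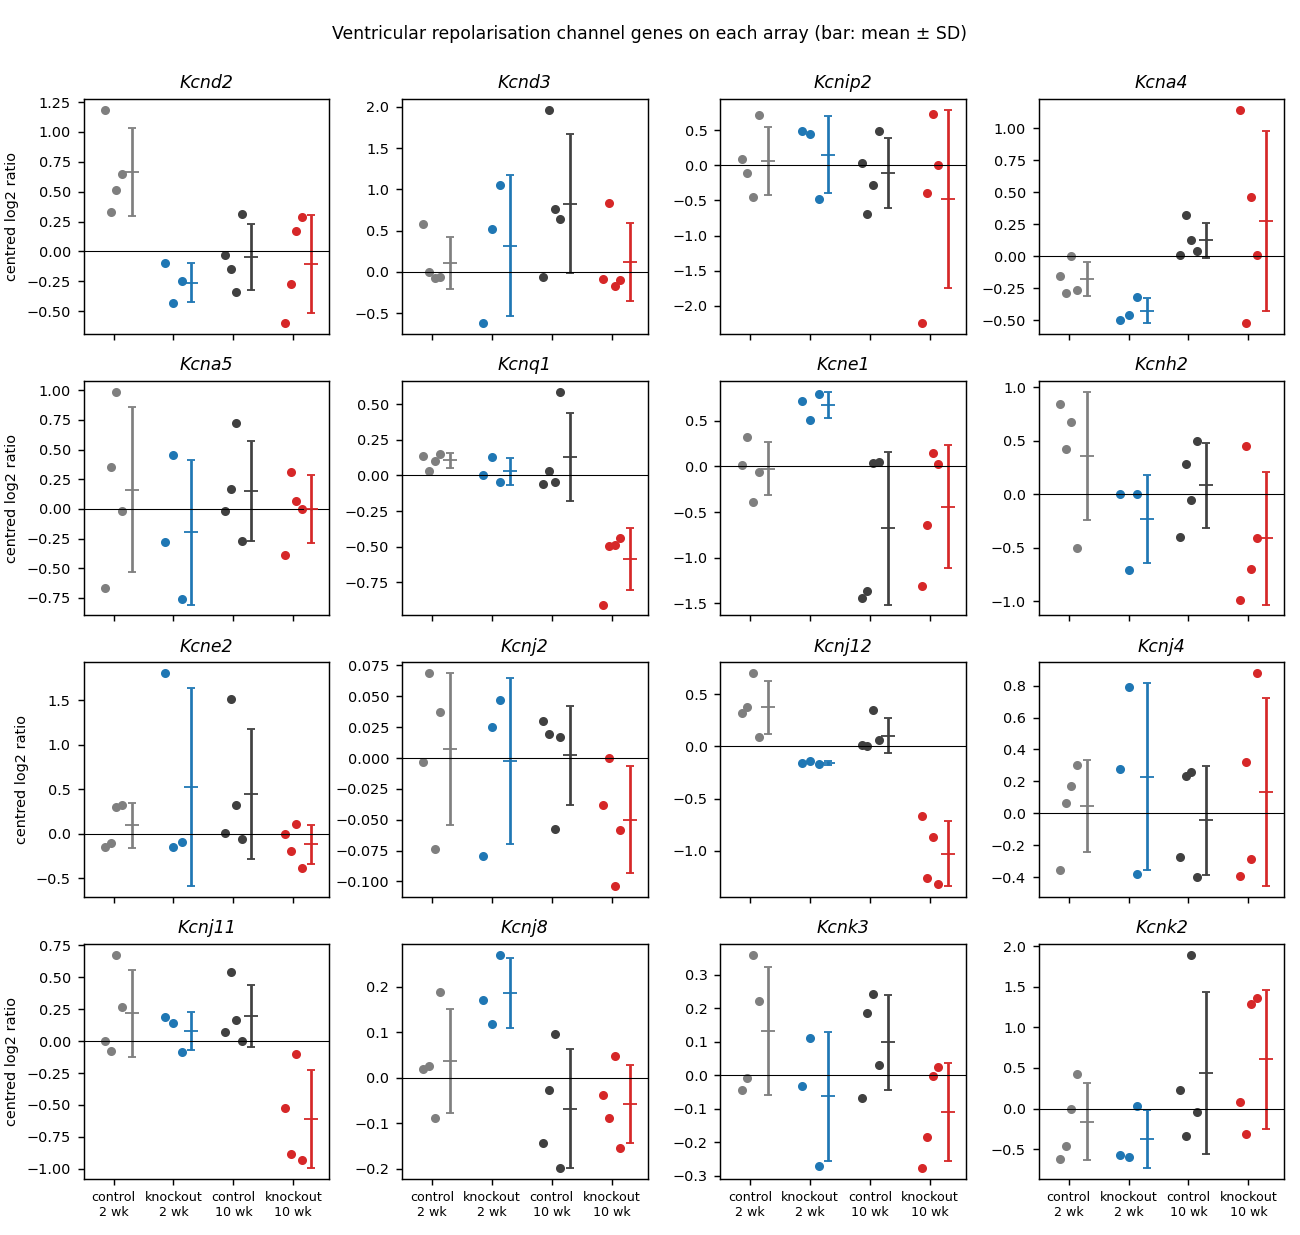
Centred log2 ratio of heart to reference (vertical axis, own range in each panel) on each array for the 16 ventricular repolarisation genes, by group, with bars for the mean ± SD. Kcnj12 in the 4 knockouts at 10 weeks runs from -1.32 to -0.67, below all 11 other arrays, while Kcnj2 stays between -0.10 and 0.07 throughout.

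Of the delayed rectifier genes, Kcnq1 fell at 10 weeks. The controls read -0.06, 0.03, -0.05 and 0.59, and the knockouts -0.91, -0.50, -0.49 and -0.44. All knockouts lay below all controls, with 1 control and 1 knockout standing away from their groups. The means were 0.13 ± 0.31 (SD, n = 4) and -0.58 ± 0.22 (SD, n = 4), and the difference was -0.71 ± 0.15 (SE, limma adjusted p = 0.0481). The call was narrow: under 21 of 22 other settings the gene kept its direction but was no longer called, with adjusted p from 0.0619 to 0.121 when 1 array was left out. At 2 weeks the controls read 0.14, 0.03, 0.10 and 0.15, the knockouts 0.00, 0.13 and -0.05, and the difference was -0.08 ± 0.16 (SE, adjusted p = 0.939). The gene lies on chromosome 7 from 143106877 to 143427050, and its antisense transcript Kcnq1ot1 overlaps it. Kcnq1ot1, read by 6 probes of its own, differed by -0.05 ± 0.17 at 10 weeks (SE, adjusted p = 0.970).

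Kcne1, the single-span subunit that slows the Kcnq1 channel, was at 0.24 ± 0.38 at 10 weeks (SE, adjusted p = 0.919). At 2 weeks its 3 knockouts, at 0.72, 0.51 and 0.79, all lay above the controls, at 0.02, 0.32, -0.39 and -0.06. That difference was 0.70 ± 0.41 (SE, adjusted p = 0.770), and its 2 probes gave 1.47 and -0.07, so it rests on 1 probe.

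Kcnh2, the pore subunit of the rapid delayed rectifier, lay at -0.49 ± 0.35 at 10 weeks (SE, adjusted p = 0.730) and -0.59 ± 0.38 at 2 weeks (SE, adjusted p = 0.786). Its accessory subunit Kcne2 lay at -0.56 ± 0.42 (SE, adjusted p = 0.747) and then 0.43 ± 0.45 (SE, adjusted p = 0.857) at the same times. Both genes overlapped between groups. Kcne2 had 1 array far out at each time, a control at 1.52 at 10 weeks and a knockout at 1.81 at 2 weeks. Kcna5, a pore subunit of the slowly inactivating delayed rectifier of mouse ventricle, differed by -0.15 ± 0.34 at 10 weeks (SE, adjusted p = 0.946) and -0.36 ± 0.37 at 2 weeks (SE, adjusted p = 0.854).

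None of the 4 transient outward current genes was called. Kcnd2, a pore subunit of the fast component, differed most at 2 weeks: the controls read 1.18, 0.33, 0.51 and 0.64, and the knockouts -0.10, -0.43 and -0.25. The groups were apart, with means of 0.67 ± 0.37 (SD, n = 4) and -0.26 ± 0.17 (SD, n = 3), and the difference was -0.93 ± 0.24 (SE, limma adjusted p = 0.441). Its probes both lay below 0, at -1.45 ± 0.36 and -0.40 ± 0.21 (SE). At 10 weeks the controls read -0.03, -0.15, -0.34 and 0.32, the knockouts -0.60, -0.27, 0.17 and 0.28, and the groups overlapped, at -0.05 ± 0.22 (SE, adjusted p = 0.974). Within the controls, Kcnd2 lay lower at 10 than at 2 weeks by 0.72 on the log2 scale, and the groups did not overlap, as in 1.8% of all genes. No other member had that pattern.

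The highest Kcnd2 array, 1.18, was control replicate 1 at 2 weeks. That heart also stood apart in the mean of 12 measured atrial and conduction system genes, at 1.49. This mean ran from -0.25 to 0.47 in the other controls and from -0.13 to 0.12 in the knockouts of that time. The part of these cells in the Kcnd2 values was not tested.

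Kcnd3, the other pore subunit of the fast component, lay at -0.71 ± 0.42 at 10 weeks (SE, adjusted p = 0.659) and 0.20 ± 0.46 at 2 weeks (SE, adjusted p = 0.943). At 10 weeks 1 control reached 1.96 and 1 knockout 0.83, and the groups overlapped. Kcnip2, the calcium-binding subunit needed for this current, read 0.04, -0.69, -0.29 and 0.49 in the controls at 10 weeks and -2.24, -0.39, 0.72 and 0.00 in the knockouts. A single knockout was far below the rest, and the difference of -0.37 ± 0.52 (SE, adjusted p = 0.903) became 0.22 without it. Kcna4, the pore subunit of the slow component, lay at 0.15 ± 0.26 at 10 weeks (SE, adjusted p = 0.923). At 2 weeks its knockouts ran from -0.50 to -0.31 and its controls from -0.29 to 0.00, a difference of -0.25 ± 0.28 (SE, adjusted p = 0.868).

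The background channels that open without voltage gating were also uncalled. Kcnk3 lay at -0.21 ± 0.13 at 10 weeks (SE, adjusted p = 0.669) and close to that at 2 weeks, with an adjusted p of 0.788. Its 2 probes read alike, at -0.21 and -0.20 and then -0.20 and -0.19, and correlated at 0.73 over the arrays. Kcnk2, a stretch-sensitive channel, lay at 0.17 ± 0.49 (SE, adjusted p = 0.963) and -0.21 ± 0.53 (SE, adjusted p = 0.950) at 10 and 2 weeks.

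Outside the ventricular list, Kcnn2, a small-conductance calcium-activated channel, had the clearest separation. At 10 weeks the controls read 0.28, 1.55, 0.21 and 0.31 and the knockouts -0.26, -0.29, -0.07 and -0.17. At 2 weeks the controls read 1.22, -0.01, 0.07 and 1.52 and the knockouts -0.09, -0.16 and -0.18. All 7 knockouts were below 0 and below every control of their time, but the controls were widely spread. The differences were -0.79 ± 0.35 (SE, adjusted p = 0.476) and -0.85 ± 0.38 (SE, adjusted p = 0.675). One of its 2 probes was called at 10 weeks when probes were tested singly, at -0.85 ± 0.16 (SE, adjusted p = 0.0321), and the other gave -0.72 ± 0.64 (SE, adjusted p = 0.821).

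The remaining members with the smallest p at 10 weeks were uncalled and often rested on a few arrays. Kcnk6, a 2-pore channel, lay at -1.17 ± 0.46 (SE, adjusted p = 0.388), with controls from -1.14 to 1.04 and knockouts from -1.68 to -0.02. Kcnb2, a delayed rectifier pore subunit, lay at -0.75 ± 0.28 (SE, adjusted p = 0.355), and 2 controls at 1.41 and 1.39 made that difference while the other 13 arrays stayed between -0.13 and 0.04. Kcnmb2, an accessory subunit of large-conductance calcium-activated channels, leaned the other way. It read 0.60, 0.01, 1.31 and -0.07 in the controls and 1.51, 2.21, 1.49 and -0.03 in the knockouts, a difference of 0.83 ± 0.39 (SE, adjusted p = 0.512). Its relative Kcnmb3 lay at -0.30 ± 0.16, the sodium-activated channel Kcnt2 at -0.45 ± 0.24 and the silent modifier Kcnv1 at -0.22 ± 0.11 (SE), with adjusted p of 0.573, 0.586 and 0.523.

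At an unadjusted p under 0.05, 6 members stood out at 10 weeks, all lower in the knockouts. They were 7.41% of members, where 9.96% of all genes passed in either direction and 5.21% passed lower, so the share was near the rest of the array. In 5 members all knockouts lay below all controls (Kcnj11, Kcnj12, Kcnmb1, Kcnn2 and Kcnq1), or 6.17%, against 3.36% of all genes. Kcnmb1 was barely apart, with its highest knockout at -0.041 and its lowest control at -0.036. In no member did all knockouts lie above all controls, where 3.24% of genes had that pattern.

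At 2 weeks no member was called with limma, where 0.00512% of all genes, a single gene, were. Without knockout replicate 1, 2 or 3 of that time, 10, 8 or 9 genes were called, again with no member among them. At an unadjusted p under 0.05, 7 members passed, all lower: Kcnd2, Kcns3, Kcnj12, Kcna1, Kcne1l, Kcnq3 and Kcnn2. They were 8.64% of members, against 7.25% of all genes in either direction and 3.63% lower. The median difference over members was -0.04, against -0.02 over all genes, and 50 members lay below 0 (61.7%, and 53.7% of all genes). In 7 members all knockouts lay below all controls, 8.64% against 4.52% of all genes. In Kcna3 and Kcne1 they all lay above, 2.47% against 4.26%.

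Among those members, Kcns3, a silent subunit that modifies other voltage-gated pores, read 0.00, 0.27, 0.38 and 0.83 in the controls at 2 weeks and -0.12, -0.28 and -0.07 in the knockouts. That was a difference of -0.52 ± 0.15 (SE, adjusted p = 0.489). Kcna1, a voltage-gated pore subunit best known from nerve, differed by -0.97 ± 0.34 (SE, adjusted p = 0.597), and its groups did overlap in part. The mean of 5 measured markers of nerve and Schwann cells ran from -0.07 to 0.74 over these controls. Over these knockouts it ran from -0.38 to -0.04, so the groups overlapped. The part of these cells in the Kcna1 values was not tested. Kcne1l, a single-span subunit, differed by -0.79 ± 0.31 (SE, adjusted p = 0.637), with 1 control at 1.56.

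Kcnq3, known as a neuronal pore subunit, gave the largest difference of the 81 members at 2 weeks, -1.68 ± 0.73 (SE, adjusted p = 0.659). Its knockouts read -2.17, -2.23 and 0.68, so the third of them sat among the controls. The next members by p were Kcnc4 at -0.66 ± 0.36 (adjusted p = 0.750), Kcng4 at 0.27 ± 0.16 (adjusted p = 0.760) and Kcng2 at 0.34 ± 0.20 (SE, adjusted p = 0.770).

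Kcnj12 and Kcnn2 were the members in which all knockouts lay below all controls at both times. That is 2.47% of members, where 0.348% of all genes, 68 genes, did so.

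**Figure D3:**
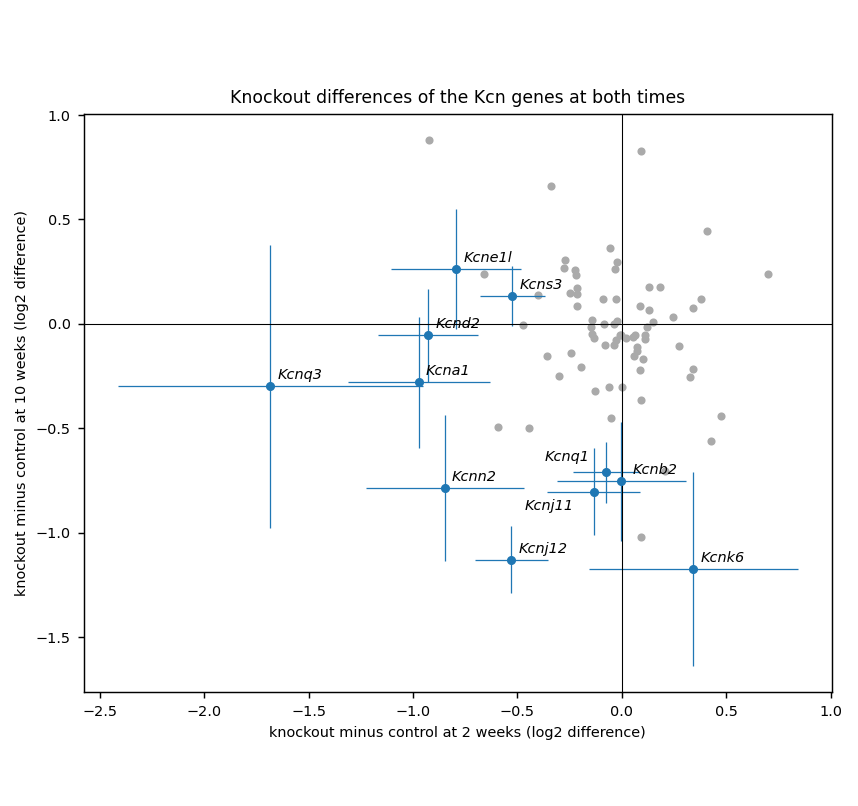
Knockout minus control difference (log2) at 2 weeks on the horizontal axis and at 10 weeks on the vertical axis for each of the 81 potassium channel genes, on equal scales, with SE bars and names for members with an unadjusted p under 0.05 at either time. Kcnj12 at -0.53 and -1.13 and Kcnn2 at -0.85 and -0.79 lie low on both axes, whereas Kcnq1 and Kcnj11 lie low on the 10-week axis and Kcnd2 and Kcnq3 on the 2-week axis.

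The difference between the 10-week and the 2-week effect was tested directly, and no member was called, nor was any other gene. Kcnj12 differed by -0.60 ± 0.24 (SE, adjusted p = 0.677), Kcnq1 by -0.63 ± 0.22 (SE, adjusted p = 0.600) and Kcnd2 by 0.87 ± 0.33 (SE, adjusted p = 0.667). Kcns3 lay at 0.66 ± 0.21 (SE, adjusted p = 0.570) and Kcne1l at 1.06 ± 0.42 (SE, adjusted p = 0.688). These effects are thus not shown to differ between the times. At an unadjusted p under 0.05, 7 members passed (8.64%, against 6.81% of all genes).

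From 2 to 10 weeks, no member was called in controls or in knockouts with limma. In the controls 3 members had an unadjusted p under 0.05, Kcnb2, Kcnd2 and Kcns3, where 4.17% of all genes did and none was called. The other members with small p in controls were Kcne1l at -0.60 ± 0.29 and Kcna6 at -0.65 ± 0.34 (SE). In the knockouts 13 members did so, 16% against 11.2% of all genes, of which 0.389% were called. In 14 members all knockouts at 10 weeks lay below all those at 2 weeks, 17.3% against 7.66% of all genes. The gaps differed in size. The highest 10-week and lowest 2-week knockouts were -0.67 and -0.17 in Kcnj12, but -0.041 and -0.039 in Kcnmb1 and 0.00 and 0.01 in Kcnk12. Gaps as small as the last ones are within the differences between array medians. In Kcns3 and Kcnv2 they lay above, 2.47% against 5.78%. The arrays of knockouts at 10 weeks enter this comparison and the one with controls, so they are not independent.

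Within the knockouts Kcnj12 lay lower at 10 weeks by 0.87 with an SE of 0.17 and came closest to a call (limma adjusted p = 0.0559). Kcnq1 differed by -0.61 ± 0.16 (SE, adjusted p = 0.137), Kcnj11 by -0.69 ± 0.22 (SE, adjusted p = 0.260) and Kcnip1, a calcium-binding subunit of transient outward channels, by -0.91 ± 0.28 (SE, adjusted p = 0.224). Kcnv2, a silent modifier known from photoreceptors, moved the other way. Its knockouts read -1.44, -1.10 and -2.16 at 2 weeks and 0.44, 1.10, 0.11 and 1.82 at 10 weeks, a difference of 2.43 ± 0.64 (SE, adjusted p = 0.140). Against controls Kcnv2 lay at 0.88 ± 0.59 (SE, adjusted p = 0.71) at 10 weeks and -0.92 ± 0.64 (SE, adjusted p = 0.787) at 2 weeks.

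Of 14 listed partners of these channels, chosen with earlier results of these data known, 12 were measured and none was called at either time. At 10 weeks 9 of 12 lay below 0, where 53.5% of all genes did. The median of the partners was -0.24, against -0.02 over all genes. In 5 partners all knockouts lay below all controls, a pattern that 3.36% of all genes had. In 1 partner, Abcc8, all knockouts lay above all controls, as in 3.24% of all genes. Cav3, the caveolin of muscle membranes where several of these channels sit, differed by -0.46 ± 0.11 (SE, adjusted p = 0.105). Akap9, the anchoring protein that brings protein kinase A to the Kcnq1 channel, differed by -0.36 ± 0.11 (SE, adjusted p = 0.193). Klf15, a transcription factor that drives Kcnip2 in the heart, differed by -0.90 ± 0.28 (SE, adjusted p = 0.209). At 2 weeks 11 of 12 lay below 0, where 53.7% of all genes did. The median of the partners was then -0.14, against -0.02 over all genes, and the groups of every partner overlapped. The smallest p belonged to Dlg1, a scaffold protein, at -0.30 ± 0.12 (adjusted p = 0.646), Irx5, a transcription factor that represses Kcnd2, at -1.06 ± 0.60 (adjusted p = 0.760), and Dpp6, a transient outward channel subunit, at -0.31 ± 0.19 (SE, adjusted p = 0.774).

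The make-up of the tissue was read from marker lists, as the mean of each list on each array. Of 8 cardiomyocyte markers, 4 differed below 0 at 10 weeks, and their mean ran from -0.05 to 0.13 in controls and from -0.21 to -0.01 in knockouts. All 8 fibroblast markers had a difference above 0 at both times, none of them called. Their mean ran from -0.58 to -0.13 in controls and from -0.13 to 0.29 in knockouts at 10 weeks, and from -0.29 to 0.26 and 0.13 to 0.83 at 2 weeks. Of 4 measured red cell markers all differed below 0 at 2 weeks, and their mean ran from -0.39 to 0.12 in controls and from -0.67 to -0.47 in knockouts. No marker of these lists was called in either comparison. The part of these shifts in the values of the members, Kcnj12 and Kcnq1 included, was not tested. Being centred, the values could not show whether cardiomyocyte markers were present at high levels.

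How firmly a member can be read depends on its probes. Of the 81 genes, 51 had 1 probe, Kcnj12 and Kcnq1 among them. Of the 30 with more, 26 had a median correlation between their probes under 0.3. Over all 30 the median of these correlations was 0.0467. Probes of Kcnk3, Kcnd2, Kcnn2 and Kcng3 went together best, at 0.73, 0.56, 0.51 and 0.48. Besides Kcnd2, Kcne1 and Kcnj4, probes lay over 1 log2 unit apart for Kcnj9, a brain and atrial inward rectifier, at 1.01 and -0.28 at 10 weeks. They did so too for Kcnc1, a fast delayed rectifier pore, at 0.37, -0.79 and 0.52. The lowest of these Kcnc1 probes was called when tested singly (SE 0.16, adjusted p = 0.0431), and the other 2 lay on the opposite side of 0.

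**Figure D4:**
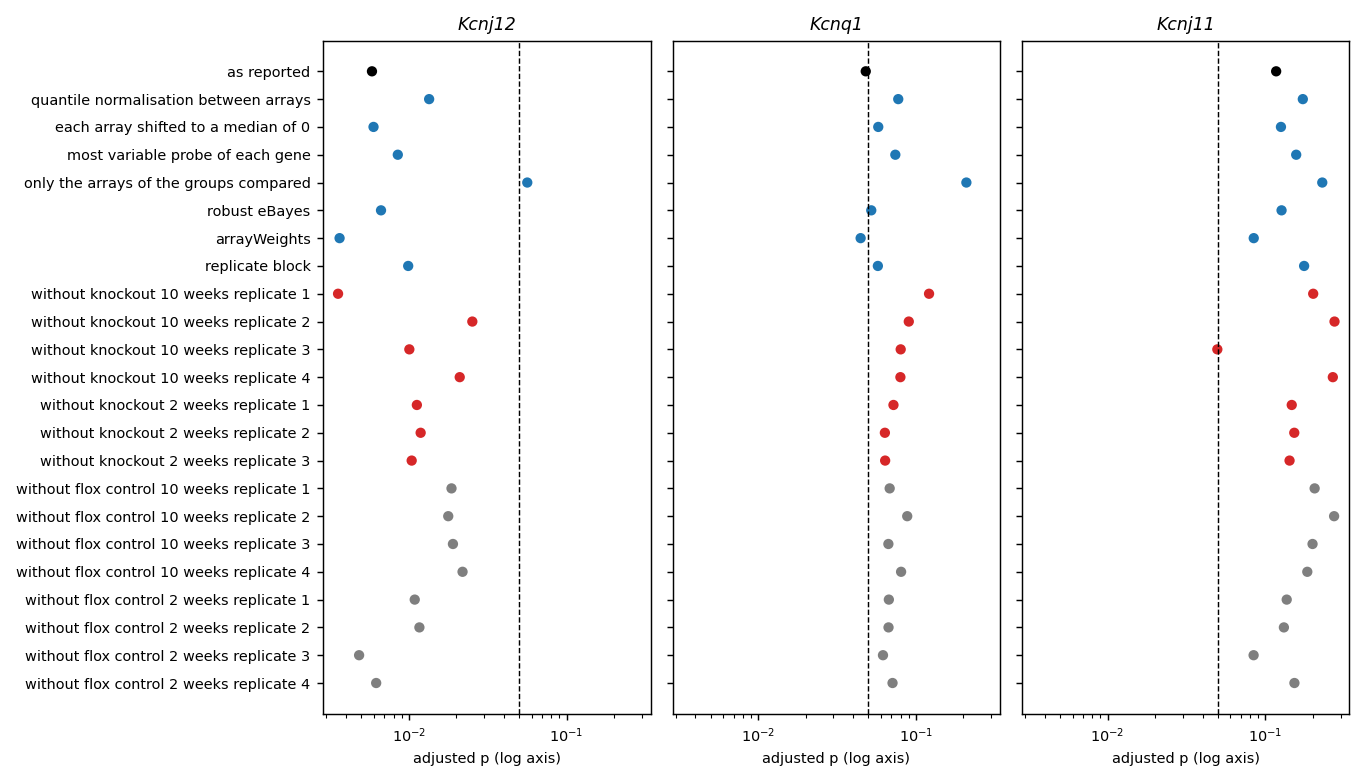
Adjusted p (log axis) of Kcnj12, Kcnq1 and Kcnj11 for knockout against control at 10 weeks under each way of processing the values, with the threshold of 0.05 as a line. Kcnj12 stays under it except with the 10-week arrays alone (0.0564), Kcnq1 is under it as reported (0.0481) and with array weights (0.0446), and Kcnj11 drops to 0.0497 when knockout replicate 3 is left out.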

How the data were processed

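Per the labels, 500 ng of heart RNA in Cy5 was hybridised against whole mouse reference RNA in Cy3 on 2-colour Agilent arrays. The deposited values were taken as log2 ratios that the authors had processed. Log base, scan software, background correction and scaling were not given in the sources used here. Each of the 41267 probes had a median of 0 over the 15 arrays. Array medians ran from -0.0207 to 0.0325. As no background signal was used, which probes read above background is not known. Precision is limited by the number of arrays, and probes of the same gene often disagreed.

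Of these probes, 32664 carried 1 gene symbol in the platform annotation and were averaged per gene. The 45 probes with several symbols and the probes with none were left out. The test was limma's (lmFit, eBayes; version 3.58.1, R 4.3.3), with 4 group means in 1 fit and 11 residual degrees of freedom. Two-sided p-values were adjusted after Benjamini and Hochberg over 19532 genes. The test was also run on simulated data with independent normal noise of each gene's own spread, in which 200 genes changed. The measured values held single arrays far from their groups, so the simulated rates need not hold for them. In the simulated data the test found 90% of 4-fold changes at 10 weeks, with 11 false of 191 called. At 2 weeks it found 87.5%, with 12 false of 187. It found 54% of 2-fold changes at 10 weeks, with 9 false of 117, and 43.5% at 2 weeks, with 1 false of 88.

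The members and lists were chosen with earlier results of these data known. The text names the ventricular list, called members, the 10 members with the smallest p in each knockout comparison, 5 in each other comparison, 3 partners and members whose probes differ by over 1 log2 unit. Kcnmb1, Kcna3 and Kcng3 were named after their values were seen. Alternatives covered scaling, choice of probe, arrays in the fit, moderation, array weights, a replicate block and leaving out each array. Promoter sequences are from RefSeq, GRCm38.p6.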

Additional observations from a re-analysis of the deposited data

Results flagged for a closer look

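Among the 35 named potassium channel genes, 12 of 105 groups of 4 hearts (11.4%) held 1 heart far from the other 3. The nominal rate of the rule for normal values is about 1 in 20, and its rate in these data was not measured. In the controls at 10 weeks these hearts were Kcna1 in replicate 2 (-0.42, the others 0.04 to 0.09), Kcna6 in replicate 3 (-1.19, the others -0.12 to 0.06) and Kcnj2 in replicate 3 (-0.058, the others 0.02 to 0.03). In the same group Kcnmb3 stood out in replicate 1 at 0.79 (the others -0.08 to 0.05) and Kcnn2 in replicate 2 at 1.55 (the others 0.21 to 0.31). Kcnj12 stood out in control replicate 3 at 10 weeks at 0.34 (the others 0.00 to 0.06), and Kcnq1 in control replicate 4 at 0.59 (the others -0.06 to 0.03).

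In the controls at 2 weeks, Kcnd3 stood out in replicate 1 at 0.58 (the others -0.08 to 0.00), Kcng2 in replicate 4 at 0.70 (the others -0.30 to -0.15) and Kcng4 in replicate 3 at -0.012 (the others 0.09 to 0.10). In the knockouts at 10 weeks, Kcnd3 stood out in replicate 2 at 0.83 (the others -0.17 to -0.08) and Kcnq1 in replicate 1 at -0.91 (the others -0.50 to -0.44).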

How the results depend on the processing

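Each named gene was tested at both times under 22 alternatives, of which 15 left out 1 array each. Of 70 such results, 46 kept their direction and side of the threshold throughout. The 2 calls at 10 weeks became 1, Kcnj12, with quantile normalisation, arrays shifted to a median of 0, the most variable probe, robust moderation or a replicate block, and 1 to 2 with an array left out. No member was called with the 10-week arrays alone, where Kcnj12 had an adjusted p of 0.0564 and Kcnq1 of 0.209. Testing probes singly called 3 members, Kcnj12, Kcnn2 and Kcnc1. Leaving out an array kept Kcnj12 between -1.25 and -1.03, with adjusted p from 0.00356 to 0.0253. Over all genes, the 134 calls at 10 weeks became 89 with the most variable probe, 50 with the 10-week arrays alone, 71 with the replicate block and 207 probes tested singly. They became 83, 61 and 62 without knockout 10-week replicate 1, 2 or 4, and 70, 73, 88 and 66 without control 10-week replicate 1, 2, 3 or 4. Same-numbered arrays deviated together weakly at most (21 pairs, r from -0.034 to 0.123, median 0.015). The 63 other pairs between groups ran from -0.082 to 0.043, with a median of -0.003, so some same-numbered pairs lay above all of these. The labels give no pairing, and the main fit does not pair hearts by number.

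The median over members at 10 weeks was -0.039 with quantile normalisation, -0.038 with shifted arrays, and -0.069 to -0.042 with an array left out. At 2 weeks the scalings gave -0.018 and -0.023 in that order, from -0.036, and leaving out an array gave -0.086 to -0.027, the lowest without control replicate 1. Within knockouts, 0 to 1 members were called between times with an array left out: Kcnj12 without control 2-week replicate 3 or knockout 10-week replicate 1, Kcnmb2 without knockout 10-week replicate 4 and Kcnip1 without knockout 2-week replicate 1.

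Uncalled differences that changed sign were Kcnd2 (0.0276) and Kcnj8 (-0.146) at 10 weeks and Kcnt2 (0.0862) at 2 weeks with the most variable probe, and Kcnj9 (0.0103) and Kcnmb2 (-0.120) at 2 weeks with the replicate block. With quantile normalisation and with shifted arrays, Kcnb2 (0.00945, 0.0105), Kcnj2 (0.0189, 0.0030) and Kcnmb3 (0.0177, 0.0119) did so at 2 weeks. With an array left out, ranges that crossed 0 at 10 weeks were Kcna4 -0.14 to 0.41, Kcna5 -0.29 to 0.037, Kcna6 -0.15 to 0.44, Kcnc1 -0.080 to 0.16, Kcnd2 -0.18 to 0.11, Kcne1 -0.018 to 0.53, Kcnip2 -0.77 to 0.22, Kcnj4 -0.073 to 0.35, Kcnj8 -0.034 to 0.064 and Kcnk2 -0.087 to 0.66. At 2 weeks they were Kcnb2 -0.014 to 0.0056, Kcnd3 -0.16 to 0.67, Kcne2 -0.22 to 0.76, Kcnip2 -0.081 to 0.41, Kcnj11 -0.23 to 0.018, Kcnj2 -0.037 to 0.029, Kcnj4 -0.094 to 0.49, Kcnj9 -0.26 to 0.21, Kcnmb3 -0.024 to 0.023 and Kcnt2 -0.25 to 0.11. The cause of these changes was not tested.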

Other observations

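Among the members, 6 spanned under 0.35 over all 15 arrays (7.41%, against 5.4% of all genes), a limit chosen after seeing the data: Kcnh7, Kcnh8, Kcnj15, Kcnj2, Kcnk10 and Kcnk12. Their 15 pairs correlated from -0.42 to 0.97, with a median of 0.13. Kcnh8, a voltage-gated channel known from brain, correlated with the 2-pore subunit Kcnk12 at 0.97 and with the inward rectifier Kcnj15 at 0.90. Kcnj2 correlated with Kcnj15 at 0.60, Kcnk12 at 0.54 and Kcnh8 at 0.53. Kcnh7 ran against Kcnk12 (-0.42) and Kcnh8 (-0.32), and Kcnk10 correlated with Kcnk12 at -0.021 and with Kcnh8 at 0.0029. These are descriptions over 15 arrays that share scaling and a reference.

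On no array did 47 members lie beyond 1 log2 unit from 0. Another 17 did so on 1 array, 9 on 2 arrays, 3 on 3 arrays and 2 on 4 arrays. Kcnv2 did so on 7 arrays, Kcnn1, a small-conductance calcium-activated channel, on 6 and Kcnq3 on 5.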
